A study of Mus musculus with 6 samples.

Results

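The Cyp3a family and its electron donor were followed through the liver transcriptome by name: 8 Cyp3a genes and Por, 9 of the 48699 genes in the deposited table. CYP3A enzymes are cytochromes P450 of the endoplasmic reticulum that oxidize drugs, steroids and bile acids, and each catalytic cycle takes electrons from NADPH through cytochrome P450 oxidoreductase, the product of Por. In liver the genes are known as targets of the xenobiotic receptors PXR and CAR, and PXR can also be activated by bile acids. FXR, encoded by Nr1h4, is the bile acid receptor, and SHP, encoded by Nr0b2, is a repressor that FXR induces.

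All mice were C57BL/6 males aged 10 to 12 weeks, and livers were taken after an overnight fast of 8 to 10 hours. Hepatocyte-specific Fxr-/- Shp-/- double knockout mice (LDKO, n = 3) were set against control mice homozygous for floxed Fxr and Shp alleles (n = 3). The sources used here do not name the promoter that drives the recombinase, and cells other than hepatocytes keep both genes. The column names carry the word chow, the same in both groups.

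Nr0b2 lay between 0.0734 and 0.293 FPKM in LDKO livers, against 14.7 to 18.7 FPKM in control livers, and Nr1h4 between 15.5 and 22.0 FPKM in LDKO livers, against 59.8 to 71.8 FPKM in control livers. FPKM counts fragments relative to transcript length in kilobases and to library size. Both were lower in LDKO livers (limma adjusted p = 0.000277 for Nr0b2 and 0.0172 for Nr1h4). The Nr1h4 call was lost in each fit that left out 1 library other than control replicate 3, and with no filter. Hepatocyte markers summed to between 36036 and 57897 FPKM in LDKO livers and between 63560 and 76129 FPKM in control livers, and 0 of 8 passed the threshold. The largest part was Alb, at 17009 to 34609 FPKM in LDKO livers and 37008 to 43645 FPKM in control livers. Of the 8 markers, 2 had a positive and 6 a negative log2 fold change. Only 2 of them, Alb and Tdo2, had no overlap between the groups, against 22.9% of all tested genes. Of 4 enterocyte genes, Lct was listed at 0 in all 6 libraries and Vil1 at 0.263 FPKM or less. The other enterocyte genes were present: Apoa4 spanned 80.6 to 367 FPKM in LDKO livers and 143 to 279 FPKM in control livers, and Fabp2 30.5 to 55.4 FPKM in LDKO livers and 87.1 to 144 FPKM in control livers. The Fabp2 groups did not overlap (log2 fold change -1.28, limma adjusted p = 0.134), and the part of such cells in any result was not tested. Depth was an estimated 13.2 to 14.1 (in units of 1e6) fragments per library. Control replicate 3 stood apart: its log2 values correlated at 0.952 and 0.955 with the other controls, and those correlated at 0.983 with each other (genes within a library do not replicate one another). Immediate-early genes summed to 874 FPKM in that library, against 65.0 and 88.6 FPKM in the other controls and 76.1 to 209 FPKM in LDKO livers. Results are therefore given with and without that library. Fewer cells of a type and less RNA per cell cannot be told apart in whole liver.

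No difference of a Cyp3a gene or Por between LDKO and control livers passed the test in the comparison of all 6 libraries, and the LDKO and control values overlapped for all 9 genes. Of the 5 members abundant enough to test, 0 passed limma's adjusted threshold and 0 had an unadjusted p under 0.05. Among all 11810 tested genes 0.313% passed, 20 higher and 17 lower (54 higher and 18 lower when each library was rescaled to the same FPKM sum), 14.9% had an unadjusted p under 0.05, and 22.9% had LDKO values entirely above or below the control values. The authors' deposited table marked 4.58% of its 11844 tested genes as significant and 0 of the members. One gene depended on the library that stood apart. Without control replicate 3, Cyp3a59 was higher in LDKO livers.

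**Figure D1:**
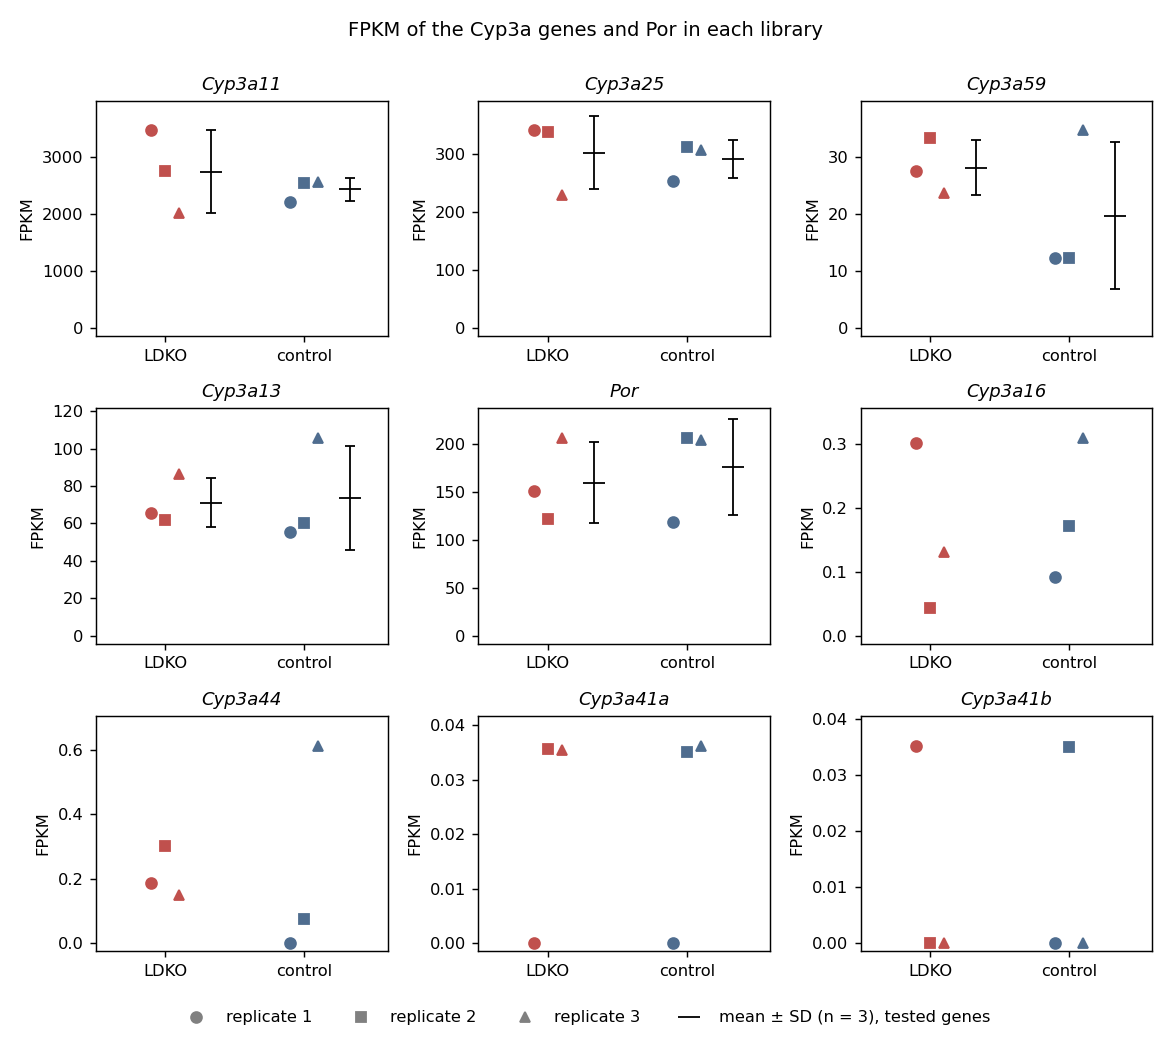
FPKM of the 8 Cyp3a genes and Por (vertical axis, a separate scale per gene) in the 3 LDKO and 3 control libraries; symbols mark the replicate number, and bars the mean ± SD of the 5 tested genes. The groups overlap in every panel, and the Cyp3a59 value of control replicate 3, 34.8 FPKM, lies far above the 12.3 FPKM of the other controls.

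Levels in liver spanned a wide range and were ordered alike in both groups. Cyp3a11 averaged 2591 FPKM over the 6 libraries and ranked between 30 and 54 among all genes in a library. Below it came Cyp3a25 (296 FPKM), Por (168 FPKM), Cyp3a13 (72.5 FPKM) and Cyp3a59 (24.0 FPKM), and the ranges of neighbours in this order did not overlap. Cyp3a44, Cyp3a16, Cyp3a41a and Cyp3a41b averaged at most 0.221 FPKM, under the filter of 0.5 FPKM. Cyp3a44 and Cyp3a16 overlapped each other in level, as did Cyp3a41a and Cyp3a41b. Since FPKM is per length, these levels can be set beside each other and summed.

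The 8 Cyp3a genes and Por all lie on mouse chromosome 5. A cluster of 7 spans 677 kb, from Cyp3a16 to Cyp3a59, at 145436309 to 146113287 (GRCm38, GENCODE M21). Along it follow Cyp3a16 (145436309 to 145469723), Cyp3a41b (145558664 to 145584730), Cyp3a41a (145694049 to 145720136), Cyp3a44 (145773983 to 145805874), Cyp3a11 (145854426 to 145879964), Cyp3a25 (145977194 to 146009618) and Cyp3a59 (146079257 to 146113287). Among these 7, Cyp3a59 alone is on the plus strand. Cyp3a13 (137892932 to 137921619, minus strand) and Por (135670033 to 135735326, plus strand) lie apart from the cluster. Abundant and nearly silent genes stood side by side: Cyp3a44, at 0.221 FPKM, is the nearest member to the left of Cyp3a11. Within 250 kb of the cluster, 29 genes outside the Cyp3a family were listed, 20 of them at 0 in all 6 libraries. Of the 7 that could be tested, 0 passed the threshold (lowest limma adjusted p = 0.228), with log2 fold changes between -0.62 and 0.27. A log2 fold change is the LDKO minus control difference of log2(FPKM + 1) throughout.

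**Figure D2:**
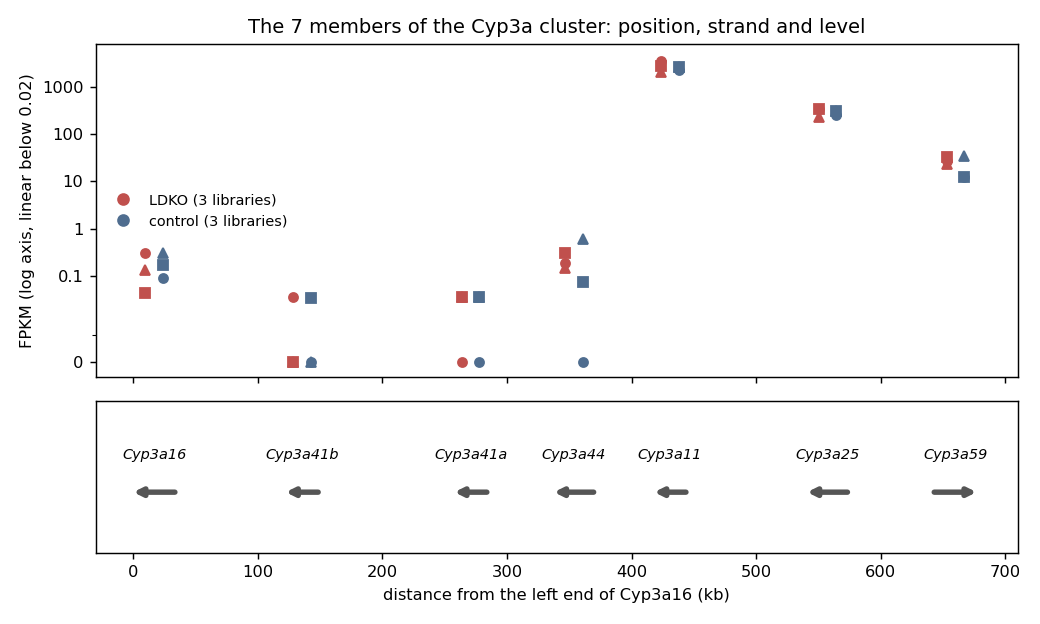
The 7 clustered Cyp3a genes by distance along chromosome 5 in kb, with arrows for strand (bottom), and the FPKM of each in the 3 LDKO and 3 control libraries on a log axis that is linear below 0.02 (top). Cyp3a11, Cyp3a25 and Cyp3a59 occupy the right of the cluster with averages of 2591, 296 and 24.0 FPKM, and the 4 genes at its left stay below 1 FPKM.

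The 250 bases upstream of the first listed RefSeq start site of each gene (GRCm38.p6, 9 of 9 genes matched) fell into families by sequence. Cyp3a11 was 80.9% to 83.3% identical over aligned bases to Cyp3a16, Cyp3a41a, Cyp3a41b and Cyp3a44, and these 4 were 93.9% to 99.6% identical to each other. Cyp3a25 and Cyp3a59 were 95.6% identical to each other, while Cyp3a11 reached 67.8% and 68.2% with them. As a measure of unrelated sequence, the Por window aligned to those of the Cyp3a genes at 55.5% to 63.7%. The last bases of this Por window (135688965 to 135689144) lie inside the Por gene as mapped above (135670033 to 135735326). It therefore belongs to a different start from the left end of the gene given there. The Cyp3a11 window (145879855 to 145880034) also overlaps its gene as mapped above (145854426 to 145879964, minus strand). Its bases from 145879855 to 145879964 lie inside that gene. Positions in the Cyp3a11 window are therefore counted from a different start than the right end of the gene given there. The 180 bases before the start are shown for the most abundant gene and a nearly silent relative, and for the pair of which 1 member depended on control replicate 3. Capitals mark the nuclear receptor half-sites AGGTCA and AGTTCA on either strand (TGACCT and TGAACT when read on the other), without overlaps between them.
Cyp3a11, chr5:145879855-145880034, minus strand: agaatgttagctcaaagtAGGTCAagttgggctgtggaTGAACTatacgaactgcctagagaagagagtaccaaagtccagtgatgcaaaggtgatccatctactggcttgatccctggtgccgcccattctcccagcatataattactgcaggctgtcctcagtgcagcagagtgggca
Cyp3a44, chr5:145805875-145806054, minus strand: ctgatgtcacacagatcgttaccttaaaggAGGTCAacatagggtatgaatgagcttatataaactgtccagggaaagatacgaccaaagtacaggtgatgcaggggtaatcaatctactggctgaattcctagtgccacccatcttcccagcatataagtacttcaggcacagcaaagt
Cyp3a25, chr5:146009619-146009798, minus strand: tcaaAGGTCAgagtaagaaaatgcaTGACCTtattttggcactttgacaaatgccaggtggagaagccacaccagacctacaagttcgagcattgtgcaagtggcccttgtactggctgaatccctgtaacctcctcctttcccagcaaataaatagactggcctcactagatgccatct
Cyp3a59, chr5:146079078-146079257, plus strand: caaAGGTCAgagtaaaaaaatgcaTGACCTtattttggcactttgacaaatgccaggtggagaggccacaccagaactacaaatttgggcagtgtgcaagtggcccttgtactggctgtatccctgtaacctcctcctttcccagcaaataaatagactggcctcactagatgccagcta
Counting back from the RefSeq start, Cyp3a11 held AGGTCA at -162 and TGAACT at -142, and Cyp3a44 held AGGTCA at -150. Cyp3a25 held AGGTCA at -176 and TGACCT at -155, and Cyp3a59 held them at -177 and -156. The pair is not particular to expressed genes: Cyp3a57, listed at 0 in all 6 libraries, held it at -174 and -153. Its window was 90.3% identical to that of Cyp3a25 and 92.3% to that of Cyp3a59. Among all 32851 promoter windows of the same length, 14.0% held AGGTCA and 11.8% AGTTCA on either strand, and 0.606% held both AGGTCA and TGACCT. Neither half-site was found in the windows of Cyp3a13, Cyp3a16 and Por, and those of Cyp3a41a and Cyp3a41b held TGAACT at -130. These matches describe letters in the window, and binding was not measured.

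Sequence likeness also limits how well the transcripts can be told apart. Cyp3a41a and Cyp3a41b transcripts were 99.9% identical, and 98.6% and 93.5% of their 50-base windows occur in another Cyp3a transcript, so their values are uncertain. For Cyp3a25 and Cyp3a59 (97.0% identical over aligned bases) 26.8% and 28.0% of windows are shared, for Cyp3a44 26.5%, for Cyp3a11 14.8% and for Cyp3a16 10.7%. Cyp3a13 and Por share 0% with the other transcripts compared, which were those of Cyp3a genes and Por only. Likeness to transcripts of other genes was not tested. The handling of reads that match several genes was not stated by any source used.

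Cyp3a11 (ENSMUSG00000056035.8), the main CYP3A enzyme of mouse liver and the counterpart of human CYP3A4, stood at 3473, 2753 and 2011 FPKM in LDKO livers, against 2205, 2549 and 2555 FPKM in control livers. The LDKO values lay on both sides of the control values. Means were 2746 ± 731 FPKM in LDKO livers and 2437 ± 201 FPKM in control livers (SD, n = 3 each). Its log2 fold change was 0.14, with a 95% interval of -0.46 to 0.74 (limma adjusted p = 0.828). Without control replicate 3 the fold change was 0.18 (limma adjusted p = 0.739). It was -0.05 without LDKO replicate 1, the highest of the 6 libraries. Each library held an estimated 65996 to 114671 fragments of Cyp3a11, so counting error is small beside the spread between animals. The interval covers changes of up to 1.67-fold upwards and 1.38-fold downwards. It is not a limit of detection, and the size of change that 3 animals a group could detect was not tested.

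Cyp3a25 (ENSMUSG00000029630.15), a constitutive hepatic CYP3A enzyme, measured 340, 337 and 229 FPKM in LDKO livers, against 253, 312 and 307 FPKM in control livers. LDKO replicate 3 was the lowest and the other LDKO libraries the highest of the 6. Means were 302 ± 63.3 FPKM in LDKO livers and 290.5 ± 32.7 FPKM in control livers (SD, n = 3 each). Its log2 fold change was 0.04 (95% interval -0.45 to 0.53, limma adjusted p = 0.947), and 0.08 without control replicate 3 (limma adjusted p = 0.851).

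Cyp3a59 (ENSMUSG00000061292.10), a close paralog of Cyp3a25, measured 27.5, 33.3 and 23.7 FPKM in LDKO livers, against 12.3, 12.3 and 34.8 FPKM in control livers. The LDKO libraries lay above control replicates 1 and 2 and, in all 3 cases, below control replicate 3. Means were 28.2 ± 4.86 FPKM in LDKO livers and 19.8 ± 13.0 FPKM in control livers (SD, n = 3 each). With all 6 libraries the log2 fold change was 0.65 (SE 0.38, 95% interval -0.25 to 1.54, limma adjusted p = 0.459), and 7.6% of tested genes had a larger one in size. Without control replicate 3 it was 1.12 (SE 0.16, limma adjusted p = 0.0398), a mean 2.29-fold higher in LDKO livers, where 1.78% of all tested genes passed and 1.13% passed as higher in LDKO livers. All LDKO values above control replicates 1 and 2 were found in 21.5% of tested genes. Library weights, which gave control replicate 3 a weight of 0.232, also brought Cyp3a59 past the threshold (1.02, 95% interval 0.51 to 1.53, limma adjusted p = 0.0450). Rescaling all 6 libraries to the same FPKM sum gave 0.87, with a 95% interval of 0.05 to 1.70 that excludes 0. The adjusted threshold was not passed there (limma adjusted p = 0.272). In the authors' deposited table Cyp3a59 had group values of 28.2 FPKM in LDKO and 19.8 FPKM in control livers, a p-value of 0.0474 and a q-value of 0.244. The ratio of Cyp3a25 to Cyp3a59 was 12.4, 10.1 and 9.67 in LDKO livers, against 20.6, 25.3 and 8.83 in control livers.

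Other transcripts had the same uneven controls. Acute phase and cytokine genes summed to 8016, 23022 and 22168 FPKM in LDKO livers, against 6396, 8040 and 37163 FPKM in control livers, with 0 of 11 tested past the threshold and Il6 and Tnf at or near 0. Macrophage markers, all 6 detected, summed to 82.7, 207 and 83.7 FPKM in LDKO livers, against 56.1, 43.8 and 121 FPKM in control livers, and 0 of 6 passed. Both sums are highest or next to highest in control replicate 3, and their part in the Cyp3a59 difference was not tested.

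Cyp3a13 (ENSMUSG00000029727.7), which is expressed in intestine as well as liver, measured 65.7, 61.6 and 86.2 FPKM in LDKO livers, against 55.5, 60.1 and 106 FPKM in control livers. Replicate 3 was the highest of its group in both cases. Means were 71.2 ± 13.1 FPKM in LDKO livers and 73.8 ± 27.7 FPKM in control livers (SD, n = 3 each). The log2 fold change was -0.01 (95% interval -0.63 to 0.62, limma adjusted p = 0.996), and 0.28 without control replicate 3 (limma adjusted p = 0.365). With that library left out, 2 of the 5 tested members, Cyp3a13 and Cyp3a59, had no overlap between the groups, against 44.6% of all tested genes.

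Por (ENSMUSG00000005514.14), the reductase that all microsomal P450 enzymes share, measured 151, 122 and 206 FPKM in LDKO livers, against 118, 206 and 204 FPKM in control livers. High and low values occurred in both groups, and the lowest of all was control replicate 1. Means were 159.7 ± 42.5 FPKM in LDKO livers and 176 ± 50.1 FPKM in control livers (SD, n = 3 each). The log2 fold change was -0.13 (95% interval -0.79 to 0.53, limma adjusted p = 0.860) and -0.00 without control replicate 3. Rescaling each library to the same FPKM sum gave 0.09, so its sign is not fixed. The summed FPKM of the 8 Cyp3a genes, most of it Cyp3a11, was 25.8, 26.1 and 11.4 times that of Por in LDKO livers, against 21.4, 14.2 and 14.7 times in control livers. LDKO replicate 3 had the lowest Cyp3a sum and nearly the highest Por value of the 6 libraries. It was also the highest LDKO library for Cyp3a13, as for Por.

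**Figure D3:**
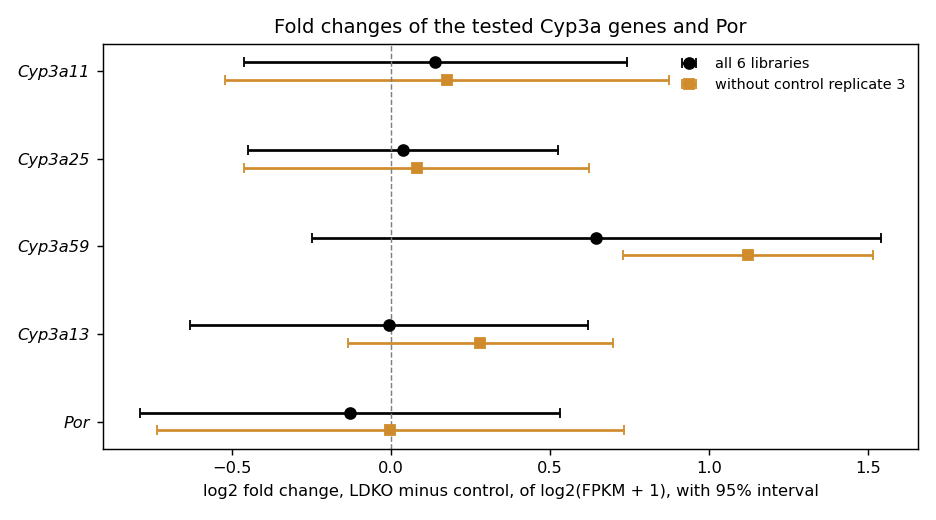
Log2 fold change (LDKO minus control, horizontal axis) of the 5 tested members with its 95% interval, from all 6 libraries and without control replicate 3. Every interval shown from 6 libraries, without rescaling or library weights, spans 0. Without control replicate 3 only the interval of Cyp3a59 does not span 0, with 1.12 as its centre.

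The Cyp3a pool consisted mostly of Cyp3a11 in both groups. Cyp3a11 supplied 87.0% ± 1.72 of the summed Cyp3a FPKM in LDKO livers and 86.4% ± 1.18 in control livers (SD, n = 3 each). Cyp3a25 supplied 9.67% ± 0.932 in LDKO livers and 10.3% ± 0.314 in control livers (SD, n = 3 each). Cyp3a13 supplied 2.43% ± 1.08 in LDKO livers and 2.59% ± 0.809 in control livers (SD, n = 3 each). Cyp3a59 supplied 0.919% ± 0.187 in LDKO livers and 0.687% ± 0.408 in control livers (SD, n = 3 each). With all 6 libraries these 4 shares overlapped between the groups. The overlap for Cyp3a59 came from control replicate 3: its share was 0.705%, 1.05% and 1.01% in LDKO livers, against 0.485%, 0.419% and 1.16% in control livers, and without that library the groups do not overlap. The 8 genes summed to 3907, 3185 and 2350 FPKM in LDKO livers, against 2526, 2934 and 3004 FPKM in control livers. As a share of all FPKM the sum was 0.568%, 0.522% and 0.337% in LDKO livers, against 0.359%, 0.372% and 0.357% in control livers, so 2 LDKO libraries lay above the controls and 1 below.

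Cyp3a16, Cyp3a41a, Cyp3a41b and Cyp3a44, which in adult mice are expressed mainly in females, were close to the limit of detection in these male livers. Cyp3a44 was listed at 0.187, 0.301 and 0.150 FPKM in LDKO livers, against 0, 0.0743 and 0.613 FPKM in control livers, an estimated 17.5 fragments over the 3 LDKO libraries and 18.6 over the 3 control libraries. Cyp3a16 was listed at 0.302, 0.0436 and 0.130 FPKM in LDKO livers, against 0.0917, 0.172 and 0.310 FPKM in control livers. For Cyp3a41a, 2 LDKO and 2 control libraries held a value, each worth about 1.0 fragment, and for Cyp3a41b 1 LDKO and 1 control library. None of the 4 passed the filter, and a difference was not detectable at this depth; with no filter, their limma adjusted p lay between 0.887 and 1.00. Beside the members, Cyp3a57 was listed at 0 in all 6 libraries and the pseudogene Cyp3a63-ps at no more than 0.0732 FPKM.

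Other female-biased liver genes were mostly low as well. Of 14 such genes outside Cyp3a, 9 could be tested and 0 passed (4 at an unadjusted p under 0.05, against 14.9% of all tested genes). Some reached the filter through LDKO libraries, such as the P450 Cyp2b13, listed at 2.36, 0.476 and 0.198 FPKM in LDKO livers and at 0 in all 3 control livers, so no direction is read from the list. Its most abundant gene, the steroid 17α-hydroxylase Cyp17a1, measured 32.3, 34.5 and 101 FPKM in LDKO livers, against 7.33, 17.8 and 30.2 FPKM in control livers. Every LDKO library exceeded every control library for this gene (log2 fold change 1.54, limma adjusted p = 0.291). Trim24 and Fmo2 came next in abundance, with fold changes of -0.09 and 0.98. Male-biased genes, 16 tested, had 0 higher, 1 lower and a median of 0.03. Of them, 5 had an unadjusted p under 0.05, against 14.9% of all tested genes. The lower one was the fatty acid ω-hydroxylase Cyp4a12b (-3.23, limma adjusted p = 0.0346), whose call was lost when any 1 library other than control replicate 3 was left out, and with no filter. With control replicate 3 left out, where 1.78% of all tested genes passed, 1 more passed, in the other direction. This was Susd4, at 47.8, 42.0 and 47.6 FPKM in LDKO livers, against 13.7, 8.37 and 26.7 FPKM in control livers. Its fold change was 1.99 without control replicate 3 (limma adjusted p = 0.0163) and 1.58 with all 6 (limma adjusted p = 0.143). The replicate block also gave 2 male-biased genes past the threshold.

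The receptors and liver factors known to act on Cyp3a genes gave 0 calls among 18 tested, 8 with a positive and 10 with a negative fold change (median -0.05). An unadjusted p under 0.05 was reached by 3, against 14.9% of all tested genes. Nr1i2, the gene of PXR, named here after looking at its values, measured 20.5, 13.3 and 22.0 FPKM in LDKO livers, against 27.9, 28.4 and 24.2 FPKM in control livers. All LDKO values lay below all control values, with a log2 fold change of -0.53 that did not pass (limma adjusted p = 0.298). Nr1i3, the gene of CAR, named in the same way, measured 106, 73.1 and 67.2 FPKM in LDKO livers, against 82.8, 101 and 105 FPKM in control livers, and the groups overlapped (-0.25, limma adjusted p = 0.601). In the other direction, and also named after looking at the values, were Rxra, the partner of PXR and CAR, and Nr3c1, the glucocorticoid receptor. Rxra measured 104, 108 and 128 FPKM in LDKO livers, against 87.7, 71.9 and 62.1 FPKM in control livers, the lowest p of the list (0.62, limma adjusted p = 0.200). Nr3c1 measured 12.4, 13.1 and 19.0 FPKM in LDKO livers, against 9.88, 7.55 and 9.97 FPKM in control livers (0.63, limma adjusted p = 0.237). For both genes the groups did not overlap and the test was not passed. The most abundant factors, Cebpa, Hnf4a and Cebpb, had fold changes of -0.04, -0.25 and 0.01.

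Further PXR and CAR targets outside Cyp3a gave 0 calls among 18 tested, with 9 positive and 9 negative fold changes (median 0.00). Of the 18, 5 had an unadjusted p under 0.05 (14.9% of all tested genes) and 6 had groups without overlap (22.9% of all tested genes). The lowest p was that of Gstm3, named after looking at the values and higher in LDKO livers (1.39, limma adjusted p = 0.190). Among the most abundant, Aldh1a1, a retinaldehyde dehydrogenase, measured 1077, 862 and 858 FPKM in LDKO livers, against 509, 525 and 826 FPKM in control livers. All its LDKO values lay above all its control values (0.62, limma adjusted p = 0.303). The glutathione transferase Gstm1 and the P450 Cyp2c29 had fold changes of -0.02 and -0.16. Without control replicate 3, 1 target passed, against 1.78% of all tested genes. It was the carboxylesterase Ces2a, lower in LDKO livers (-1.03, limma adjusted p = 0.0420). With all 6 libraries its fold change was -0.80 (limma adjusted p = 0.198).

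Partners of the P450 enzymes gave 0 calls among 11 (median -0.06), with 1 at an unadjusted p under 0.05 against 14.9% of all tested genes. Cyb5a, the cytochrome b5 that passes electrons to some P450 enzymes, measured 1916, 1312 and 1804 FPKM in LDKO livers, against 1600, 1860 and 2383 FPKM in control livers. Its level exceeded that of Por in every library. Pgrmc1, a heme-binding protein that associates with P450 enzymes, measured 583, 486 and 558 FPKM in LDKO livers, against 814, 851 and 1034 FPKM in control livers. All LDKO values lay below all control values, but the test was not passed (difference of -0.73 in log2, limma adjusted p = 0.174). Cyb5r3, the reductase of cytochrome b5, had a fold change of 0.33 (limma adjusted p = 0.548).

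Microsomal enzymes outside Cyp3a that take electrons from POR gave 0 calls among 29, with 14 positive and 15 negative fold changes (median -0.14). An unadjusted p under 0.05 was reached by 5, against 14.9% of all tested genes. The most abundant, Cyp2e1, the ethanol-inducible P450, and Cyp2d9 had fold changes of -0.14 and 0.02. Without control replicate 3, 1 was higher and 2 were lower, against 1.78% of all tested genes past the threshold there. All were chosen here after their values were seen. The higher one was Cyp7a1, the rate-limiting enzyme of bile acid synthesis (1.80, limma adjusted p = 0.0113). With all 6 libraries its fold change was 0.99 (limma adjusted p = 0.484). Cyp7a1 measured 102, 118 and 126 FPKM in LDKO livers, against 28.6, 36.2 and 181 FPKM in control livers, so it shared with Cyp3a59 a control replicate 3 above all other libraries. The lower ones were Cyp2a12 (-1.38, limma adjusted p = 0.0163) and Cyp2f2 (-1.36, limma adjusted p = 0.0284). With all 6 libraries they had -1.21 (limma adjusted p = 0.0691) and -0.99 (limma adjusted p = 0.239), in the same order.

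**Figure D4:**
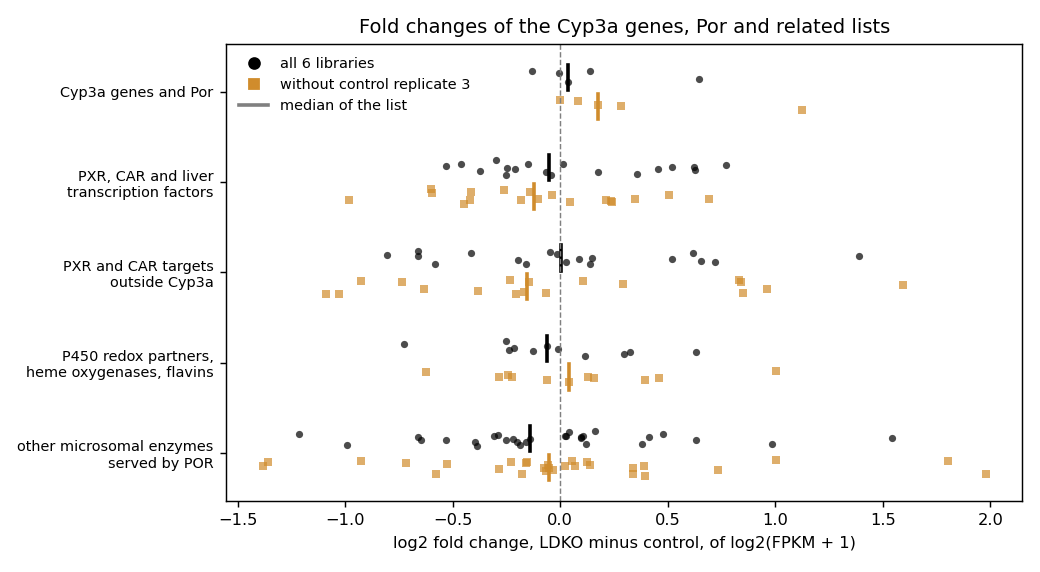
Log2 fold change (LDKO minus control, horizontal axis) of each tested gene in 5 lists (vertical axis), with the median of each list as a bar, from all 6 libraries and without control replicate 3. The medians from 6 libraries lie between -0.14 and 0.04.

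The genes with the pattern most like a member over the 6 libraries were found by the root mean square difference of their log2 values, each centred on its own mean. For Cyp3a11 these were Exoc5 (0.101), Cyp3a25 (0.110), Hspa13 (0.122) and Eif1a (0.128) among 5723 candidates, beside a standard deviation of Cyp3a11 itself of 0.273. Cyp3a25 is thus the member nearest to Cyp3a11, and their transcripts are 74.1% identical over aligned bases. For Por the nearest were N4bp2l2 (0.0918), Rps28 (0.0930), Lsm5 (0.107) and Dap3 (0.113) among 4755 candidates, beside a standard deviation of 0.381. No Cyp3a gene was among the 4 nearest to Por. Such likeness over 6 libraries is a description of these animals.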

How the data were processed

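Liver mRNA of 3 LDKO and 3 control mice was measured by stranded mRNA sequencing of 1 library each, per the labels' protocols. The authors deposited FPKM for 48699 genes per library, and a comparison table with each group's FPKM and its p-value and q-value, per the file headers. Cuffdiff 2.2.1, STAR 2.4.2a, Trimmomatic and Picard, and the builds GRCm38 and mm10, are listed in the submitters' processing notes, without role or order. How reads that match several genes, and strand, were handled was not stated by any source used. Groups and replicate numbers came from the sample titles. All 6 value columns were used.

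Depth was read from the steps of the low FPKM values (1 fragment in genes over 1500 bases with 1 transcript), giving 13.2 to 14.1 (in units of 1e6) fragments per library. Fragment numbers of members are estimates from this, and cover counting error only. The 11810 genes averaging 0.5 FPKM or more were compared with limma 3.58.1 (R 4.3.3) on log2(FPKM + 1), which understates changes of low genes, with a mean-variance trend and Benjamini-Hochberg adjustment at 0.05; the script was checked on simulated data. An exact permutation test of 3 against 3 cannot go below 0.1, so none was run. P-values measure the spread between these animals, each library being taken as 1 mouse. Transcript windows came from GENCODE M21 (48343 of the identifiers found), promoters from RefSeq. Identity was computed with biopython 1.88 over aligned bases, gaps left out. The members and all 17 lists were chosen with earlier results of these data known. In each list the genes past the threshold, or else up to 3 of the most abundant, were named, and the 4 genes most like Cyp3a11 and Por; others are marked. Alternatives were pseudocounts, filters, scalings, library weights, a replicate block and leaving out each library.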

Additional observations from a re-analysis of the deposited data

How the results depend on the processing

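The count of all genes past the threshold, 37, was 72 with TPM rescaling, 563 with library weights, 2 with no filter and between 2 and 210 when 1 library was left out, 210 being without control replicate 3. TPM rescaling moved the median log2 fold change of all tested genes to 0.18 and made that of every tested member positive. FPKM summed to 610618 to 697877 per LDKO library, against 702759 to 841745 per control library. The number of members past the threshold, 0, was 1 with library weights and between 0 and 1 when 1 library was left out; in both cases the gene was Cyp3a59. Its fold change was positive in all 14 alternatives (0.41 to 1.12; limma adjusted p from 0.0398 to 0.775). The near-zero fold change of Cyp3a13 turned to 0.22 with TPM rescaling, 0.19 with library weights and 0.17 with quantile normalization, and that of Por to 0.094 with TPM rescaling and 0.12 with quantile normalization. Leaving out 1 library gave -0.047 to 0.35 for Cyp3a11, -0.18 to 0.28 for Cyp3a13, -0.059 to 0.23 for Cyp3a25 and -0.39 to 0.047 for Por, none past the threshold. The cause of these changes was not tested.

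The replicate block gave 50 genes past the threshold and 0 members. Same-numbered LDKO and control libraries deviated together with correlations of 0.220, -0.0754 and 0.301 across genes, and differently numbered ones with -0.321 to 0.254. These values do not settle whether the animals are paired. The labels do not say that same-numbered mice are related, so the main fit did not pair them. Depth limits Cyp3a16, Cyp3a41a, Cyp3a41b and Cyp3a44, and 3 animals a group limit the others.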

Other observations

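The pattern of Cyp3a59 over the 6 libraries, looked at after its values were seen, was closest to those of BC048546, Dio1, Il18bp and Enho, with root mean square differences of 0.142, 0.165, 0.173 and 0.184 beside a standard deviation of Cyp3a59 of 0.648. Dio1, a deiodinase of thyroid hormone, measured 160, 173 and 143 FPKM in LDKO livers, against 94.2, 84.1 and 193 FPKM in control livers. Enho, which encodes the secreted peptide adropin, measured 28.3, 41.4 and 32.0 FPKM in LDKO livers, against 16.0, 19.8 and 40.7 FPKM in control livers. Control replicate 3 was within or above the LDKO range for these genes. They were picked for likeness to Cyp3a59, whose control replicate 3 was high, so this is not a separate result.

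Cholangiocyte markers summed to 59.1, 63.0 and 63.7 FPKM in LDKO livers, against 33.7, 37.3 and 44.2 FPKM in control livers, mostly from Spp1, with 0 of 4 tested past the threshold. Without control replicate 3, where 1.78% of all tested genes passed, Spp1 was higher in LDKO livers (0.82, limma adjusted p = 0.0412). The marker lists of sinusoidal endothelium (5 tested), stellate cells (5), lymphocytes (1), enterocytes (2) and hepatocytes, and the immediate-early genes (15), also had 0 past it.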
